A study of Tupaia belangeri with 15 samples.

Results

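VGluT3 amacrine cells (ACs) of the tree shrew (TS) retina were taken as the nuclei with at least 2 unique molecular identifiers (UMIs) of SLC17A8, the gene of the vesicular glutamate transporter VGluT3. They also had at least 1 UMI of PAX6, TFAP2A or TFAP2B, transcription factors of ACs, and 0 UMIs of 5 genes that mark other cells: SLC17A6 and RBPMS (retinal ganglion cells, RGCs), RLBP1 (Müller glia), CHAT (starburst ACs) and ARR3 (cones). By this rule 965 nuclei were found among 119765 nuclei, of 120437 barcodes in all, after limits of over 200 and below 6000 detected genes and of below 5% mitochondrial UMIs. The AC gate, which is the same rule without SLC17A8, held 28582 nuclei. The members were thus chosen by the measured counts of these 9 genes, whose values are given only as a description.

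ACs are the inhibitory interneurons of the inner retina, and most release either GABA or glycine. VGluT3 ACs are an exception known from the mouse, since they carry both the glycine transporter GlyT1 (SLC6A9) and a vesicular glutamate transporter. They release glutamate onto some RGCs and glycine onto others, and they are known for their responses to small moving or looming objects. The adhesion protein Sidekick 2 (SDK2) is known to join mouse VGluT3 ACs to one of their RGC partners.

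The libraries came from frozen retinas of Tupaia belangeri, profiled as single nuclei on the 10x Genomics platform, with 1 library per retina and 5 retinas from separate animals at each of 3 stages. Ages ran from 1.4 to 2.1 months in infancy, from 24.96 to 36 months in maturity and from 85.8 to 86.56 months in senility. The labels name no treatment. The senile animals came from another institute than the infant and mature ones, so stage and source cannot be told apart in any comparison with the senile stage. The retinas contributed 4269 to 9856 barcodes and 13429873 to 58734300 UMIs each. The labels divide the libraries by Cell Ranger version, 7 with the earlier and 8 with the later version, and both sets hold all 3 stages. They also give polyA RNA for the former set and total RNA for the latter, so that version and RNA type cannot be told apart, and the sets are called here by version. The p-values of shares and stages below measure the spread between retinas. Those between groups of nuclei, and of stage effects compared between such groups, measure how the differences within a retina spread over retinas.

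The nuclei with 2 or more SLC17A8 UMIs were followed through the rule. Of 2057 such nuclei, 263 had no AC gene and 829 more were removed by the 5 exclusion genes. ARR3 was present in 570 of the 829, alone in 381, and RLBP1 in 271, alone in 121. Among the members, PAX6 was detected in 76.0%, TFAP2A in 57.8% and TFAP2B in 52.5%, and 23.7% had all of them. Just inside the threshold, 345 members (35.8%) had exactly 2 SLC17A8 UMIs, and the highest count was 13. Just outside it, 661 nuclei of the AC gate had 1 SLC17A8 UMI.

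SLC17A8 was also detected in classes that should lack it. Over all retinas together, the share with 2 or more UMIs was 0.367% of 10366 cone-gate nuclei (95% Wilson interval 0.267 to 0.503), 0.320% of 6869 bipolar-gate nuclei and 0.238% of 839 Müller-gate nuclei, against 3.38% of the AC gate (3.17 to 3.59). These shares follow from the gene of the rule and are a description. Over single retinas they ran from 0 to 2.44% of cones, 0 to 0.847% of bipolar-gate nuclei and 0 to 4.17% of Müller glia, so that the highest cone and Müller values lay above the lowest value of the AC gate, 1.35%. These highest values rest on very few nuclei. Over all retinas only 2 Müller-gate and 38 cone-gate nuclei had 2 or more UMIs. Median depths of these 4 gates were 3599, 3236, 3028 and 2841 UMIs. At 1 or more UMI the gap narrowed, with 4.36% of cones, 2.18% of bipolar cells (BCs), 2.26% of Müller glia and 5.69% of the AC gate, and single retinas overlapped, at 1.66 to 15.9% of cones and 2.75 to 8.43% of the AC gate. These intervals cover counting error only.

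The members were slightly deeper than the ACs without SLC17A8, with a median of 3496 UMIs (647 to 18185 over nuclei) against 2819. Doublet calls marked 65 members (6.74%) and 4.30% of the other ACs. Among members the calls ran from 0% in Mature 5, Senile 2 and Senile 3 to 23.2% in Mature 1. Of 117976 barcode sequences, 1768 occurred in more than 1 library. This held for the barcodes of 27 members, and none was a member in 2 libraries.

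**Figure D1:**
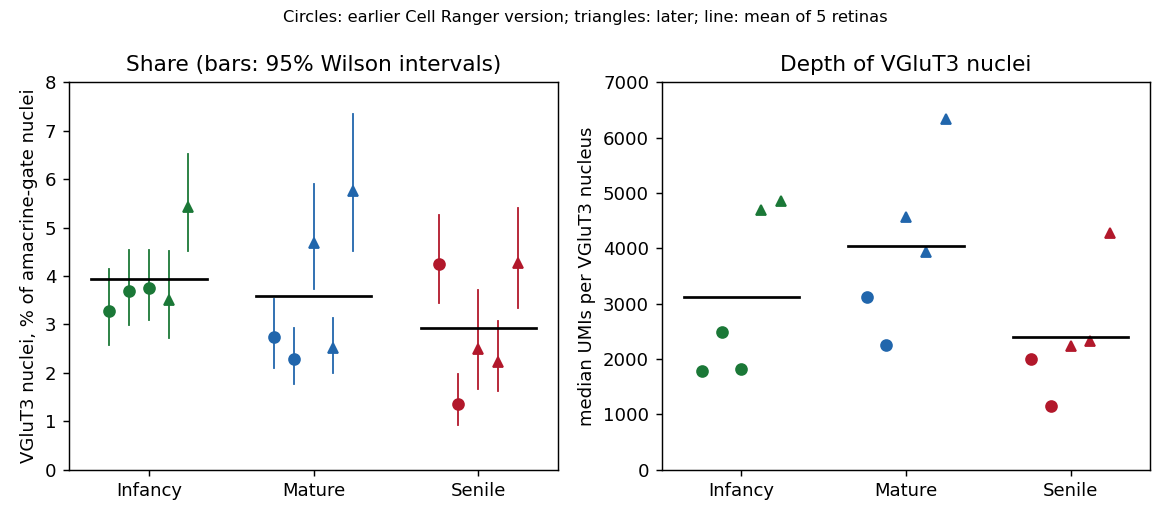
VGluT3 nuclei as a percentage of AC-gate nuclei with 95% Wilson intervals (left) and median UMIs per VGluT3 nucleus (right) in the 15 retinas by stage, with circles for the earlier and triangles for the later Cell Ranger version and lines for the means of 5 retinas. The stages overlap in both measures, and the shares run from 1.35% to 5.77%.

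Members made up 3.93 ± 0.856% (SD, n = 5) of the AC gate in infancy, 3.60 ± 1.55% in maturity and 2.92 ± 1.29% in senility. The infant retinas had shares of 3.27, 3.69, 3.75, 3.51 and 5.42%. The mature retinas had 2.73, 2.28, 4.69, 2.50 and 5.77%, and the senile retinas 4.26, 1.35, 2.50, 2.23 and 4.26%. The stages overlapped, with the highest share in a mature retina and the lowest in a senile one. By exact permutation of the retinas (2-sided, Benjamini-Hochberg over 3 pairs of stages), the senile share was lower than the infant share by a difference of -1.01 percentage points that did not pass (p = 0.175, adjusted 0.524). The mature share differed from the infant share by -0.334 points (exact permutation p = 0.706, adjusted 0.706) and the senile from the mature share by -0.676 points (exact permutation p = 0.460, adjusted 0.690). Taken as the mean of the differences inside each Cell Ranger version, the mature minus infant difference was -0.605 points, the senile minus infant one -1.12 points and the senile minus mature one -0.514 points (exact permutation within versions, p = 0.43, 0.16 and 0.567, adjusted 0.567, 0.48 and 0.567). At 3 or more SLC17A8 UMIs the mature minus infant difference was -0.0815 points. Leaving out single retinas moved the first values by over 1.5 times. Among others, without Infancy 5 the mature minus infant difference turned to 0.0393 points and the senile minus infant one to -0.637, without Senile 2 the latter was -0.618, and without Mature 5 the senile minus mature one was -0.134.

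Members differed in depth between retinas, and depth and share did not go together throughout. The median depth of members was lowest in Senile 2, at 1148 UMIs, where the share was also lowest, and highest in Mature 5, at 6345 UMIs, where the share was highest. Senile 1 had a share of 4.26% at a median of 1993 UMIs, and Mature 4 one of 2.50% at 3927 UMIs. With each nucleus thinned to 2000 UMIs, 159 of 8493 infant, 157 of 9370 mature and 89 of 5453 senile AC-gate nuclei were members, after 14976 infant, 8944 mature and 15014 senile nuclei of all classes had been left out as too shallow. The stage means were then 1.84, 1.70 and 1.48%. The difference between senile and infant retinas was -0.359 points (exact permutation p = 0.365).

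The label was checked against SLC6A9, the marker that the rule did not use. SLC6A9 was detected in 65.8% of members, from 40.5 to 87.5% over retinas, against 23.5% of the ACs without SLC17A8, 5.96% of cones and 4.32% of BCs. After thinning to 2000 UMIs the shares were 40.3% of members and 16.0% of other ACs. The share with SLC6A9 was above that in the classes that should lack it in every retina, as the lowest of 15 retinas had 40.5%.

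SLC6A9 had a mean level of 458 CPM in members and 162 CPM in other ACs, where CPM is the count of a gene per 1000000 UMIs after the nuclei of a retina were summed. In members the infant retinas had 1063, 726, 694, 180 and 232 CPM, the mature retinas 576, 730, 194, 124 and 236 CPM, and the senile retinas 442, 687, 658, 183 and 143 CPM. SLC6A9 was higher in members than in other ACs of the same retina in 15 of 15 retinas, by 1.33 ± 0.09 (SE) on the log2 scale (edgeR quasi-likelihood test, adjusted p = 2.03e-14). Levels differed between the sets of libraries divided by Cell Ranger version and RNA type, with 442 to 1063 CPM in the 7 retinas of the earlier and 124 to 658 CPM in the 8 of the later version. Within each version alone the log2 difference was 1.49 and 1.15.

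The other transmitter genes were read against the same ACs without SLC17A8 UMIs. Of 11 genes of the transmitter list tested against these, SLC6A9 among them, 2 were higher and 4 lower, against 10.2% and 16.9% of all features. Of 6 tested also against the glycinergic ACs, 0 were higher and 0 lower in both comparisons. SLC6A11, the GABA transporter GAT-3, had a median of 38.6 CPM over the 15 retinas in members, up to 135 CPM, and was at 74.8, 177 and 265 CPM (lowest, median and highest) in other ACs, so that the groups overlapped. It was lower in 15 of 15 retinas, at -2.32 ± 0.17 on the log2 scale (edgeR, adjusted p = 3.89e-13). Against glycinergic ACs, defined below, it did not pass (-0.37 ± 0.19). The GABA-synthesizing enzymes could not be used, since GAD2 was detected in no member and GAD1 in 0.104%, and a gate on both found only 6 AC nuclei in the whole series. SLC17A7, the vesicular glutamate transporter VGluT1, was at 36.2 CPM in members and 34.2 CPM in other ACs (log2 difference 0.04 ± 0.20, not passing).

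For the remaining genes, members were set against 2 sets of ACs without SLC17A8 UMIs from the same retinas. Glycinergic ACs were 3185 nuclei with at least 2 SLC6A9 UMIs and no GAD1 or GAD2, and all other ACs were the 26956 nuclei that include them, so the comparisons share nuclei. UMIs were summed per retina, and retina was a block in the edgeR fit. Against glycinergic ACs, 751 of 4950 features were higher (15.2%) and 788 lower (15.9%). Against all other ACs, 1142 of 11197 were higher (10.2%) and 1896 lower (16.9%). In both comparisons 571 of 4945 features were higher (11.5%) and 616 lower (12.5%), of which 446 and 498 were named single genes.

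The filter on low counts bears on the genes that are low in one set. A feature was tested when at least 14 sums reached 31.1 CPM in the comparison with glycinergic ACs or 6.48 CPM in that with all other ACs, and it could meet this through the members alone, through the other ACs alone, through each or only through both together. In both comparisons 2626 features passed the filter in each set, of which 387 were higher (14.7%) and 260 lower (9.90%), and the counts of the gene lists below are also given for these. Of the 20 higher genes named by rank, 16 passed it through the members alone against glycinergic ACs and 3 (CYYR1, BNC2 and TFAP2E) against all other ACs. Of the 10 lower ones, 6 and 5 passed it through the other ACs alone. The same held against glycinergic ACs for SDK2, EPHB2, BARHL2, VIPR2 and STX3, which are higher, and for EBF1, EBF3, NFIX, PBX3, TSHZ2, PROX1, SDK1, GRIA1, GABRA3, KCNQ3, KCNH8, SYT7, UNC13C, OPRM1 and PRKCA, which are lower. Against all other ACs it held for NEUROD2 and CRHR1, which are higher, and for CALB2, GABRG1, GRIA1, NFIX, RIMS4, OPRM1, TACR1 and TACR3, which are lower. The log2 differences of such genes in these comparisons are a description and not a test.

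The 20 higher genes named by rank were led by CYYR1 and NXPH1. CYYR1, a small membrane protein, was at 366, 581 and 1289 CPM (lowest, median and highest of 15 retinas) in members, at 0, 8.24 and 37.7 CPM in glycinergic ACs and at 2.62, 9.16 and 53.2 CPM in all other ACs. Its log2 difference was 5.76 ± 0.24 against glycinergic and 5.78 ± 0.22 against all other ACs, given without a test, as it passed the filter through the members alone in both. NXPH1, a secreted ligand of neurexins, was at 3332, 5749 and 7608 CPM in members, at 12.3, 115 and 286 CPM in glycinergic ACs and at 49.7, 114 and 297 CPM in all other ACs. The members did not overlap with either set in either gene, and the lowest member sum of NXPH1 lay far above every sum of the other sets. NXPH1 differed by 5.57 ± 0.21 and 5.51 ± 0.12 on the log2 scale.

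SGCZ, a sarcoglycan of the membrane, was at 7613, 11904 and 17521 CPM in members, at 546, 1264 and 1931 CPM in glycinergic ACs and at 393, 558 and 936 CPM in all other ACs, with log2 differences of 3.27 ± 0.11 and 4.33 ± 0.09. BNC2, a zinc finger protein, was at 210, 511 and 798 CPM in members and at 5.13, 29.3 and 91.5 CPM in glycinergic ACs (3.90 ± 0.13, and 4.97 ± 0.15 against all other ACs). LHX2, a LIM homeodomain factor best known from the optic vesicle and Müller glia, was at 181, 319 and 456 CPM in members and at 0, 11.2 and 54.8 CPM in glycinergic ACs (4.24 ± 0.21, and 3.37 ± 0.11 against all other ACs). None of these sets overlapped with the members. Each gene was higher in 15 of 15 retinas, which the rule for genes named by rank required. PLPP4, a lipid phosphatase, was at 67.5, 241 and 332 CPM against 3.08, 12.6 and 20.3 CPM in glycinergic ACs (4.25 ± 0.17). BNC2, LHX2 and PLPP4 passed the filter through the members alone there.

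TFAP2E, a transcription factor of the same family as the TFAP2A and TFAP2B of the rule, was at 44.3, 57.5 and 112 CPM in members and at 0, 7.82 and 13.7 CPM in glycinergic ACs, without overlap (log2 difference 3.04 ± 0.18, and 2.79 ± 0.18 against all other ACs, neither of them a test). Synaptic genes stood among the same 20 genes. SHANK3, a scaffold of the excitatory postsynapse, was at 2742, 3359 and 4766 CPM in members and at 318, 723 and 920 CPM in glycinergic ACs (2.39 ± 0.10, and 2.90 ± 0.09 against all other ACs). IL1RAPL2, a synaptic adhesion receptor, was at 89.9, 183 and 273 CPM in members and at 1.40, 13.7 and 32.2 CPM in glycinergic ACs. Its log2 difference there was 3.73 ± 0.21, without a test, as it passed the filter through the members alone. In both genes all 15 member sums lay above every glycinergic sum. HPGD (a prostaglandin-degrading enzyme), MOXD1, CNBD1, NTNG2, PPFIBP2, SULF2, IGSF3, CACHD1, ANO4, PLPP3 and TOM1L1 completed the 20, with log2 differences from 2.11 upwards. Each was higher in all 15 retinas in both comparisons, which the rule for genes named by rank required. Only 4 of the 20 passed the filter in each set against glycinergic ACs. The differences of the other 16 there are a description and not a test.

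SDK2, the adhesion protein named above, was at 95.1, 147 and 215 CPM in members, at 7.23, 31.8 and 56.8 CPM in glycinergic ACs and at 25.3, 32.9 and 42.3 CPM in all other ACs. The member sums overlapped with neither. SDK2 was higher than in all other ACs by 2.06 ± 0.11 on the log2 scale (edgeR, adjusted p = 1.94e-16), in 15 of 15 retinas. Against glycinergic ACs the difference was 2.37 ± 0.15, without a test.

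**Figure D2:**
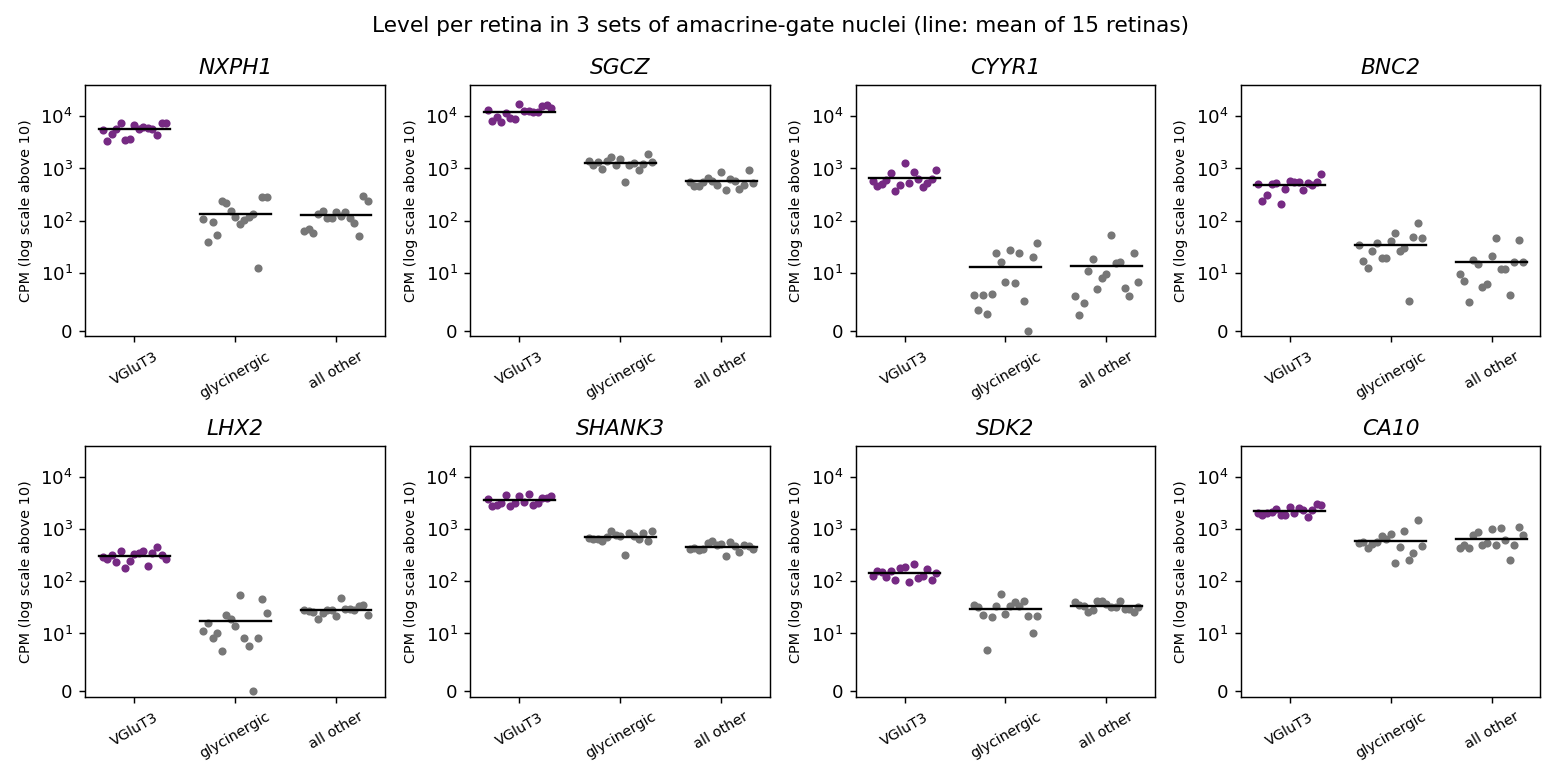
Levels per retina, in CPM on an axis that is logarithmic above 10 CPM, of NXPH1, SGCZ, CYYR1, BNC2, LHX2, SHANK3, SDK2 and CA10 in VGluT3 nuclei, glycinergic ACs and all other ACs, with lines for the means of 15 retinas. In each panel all 15 VGluT3 sums lie above every other sum, as with NXPH1, whose lowest is 3332 CPM.

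The 10 named genes that were lower included surface and matrix proteins. CDH10, a cadherin, was at 0, 31 and 162 CPM in members, at 148, 285 and 374 CPM in glycinergic ACs and at 136, 226 and 304 CPM in all other ACs, so that the highest member sum reached into the lower end of the others. CDH10 was lower than in all other ACs, at -2.22 ± 0.22 on the log2 scale (edgeR, adjusted p = 6.74e-10), and at -2.44 ± 0.26 against glycinergic ACs, without a test. It was lower in 15 of 15 retinas, which the rule for genes named by rank required. ZNF385D had a mean of 626 CPM in members against 2572 CPM in glycinergic and 2436 CPM in all other ACs, and the proteoglycan SPOCK3 151 CPM against 594 and 644 CPM. NECAB1, NIBAN1, the heparan sulfate enzyme NDST4, the netrin receptor UNC5B, ST3GAL6 and GALNTL6 were also among the 10 genes.

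The signature genes were found together in single nuclei. SGCZ was detected in 97.3% of members, NXPH1 in 96.4%, CYYR1 in 74.9%, BNC2 in 67.6% and LHX2 in 61.5%. These 5 genes were picked after their values had been seen, and the counts are a description. At least 3 of the 5 were detected in 887 members (91.9%), from 80.0 to 98.4% over retinas, and in 1.17% of the ACs without SLC17A8 and 1.76% of glycinergic ACs. The share rose with the SLC17A8 count, from 43.7% of the 661 AC nuclei with 1 UMI to 84.9% with 2 UMIs, 94.5% with 3 and 96.5% with 4 or more. None of the 5 was found in 17 members (1.76%), all of which had exactly 2 SLC17A8 UMIs.

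The same genes were present in nuclei that the rule had left out. At least 3 of the 5 were found in 90.6% of the 381 nuclei left out for ARR3 alone, in 97.5% of the 121 left out for RLBP1 alone and in 75.0% of the 148 that had neither an AC gene nor an exclusion gene. A further 316 of the 26956 ACs without SLC17A8 UMIs had at least 3 of them. The count of 965 is therefore the count by the rule, and not a count of every nucleus that carried these genes.

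**Figure D3:**
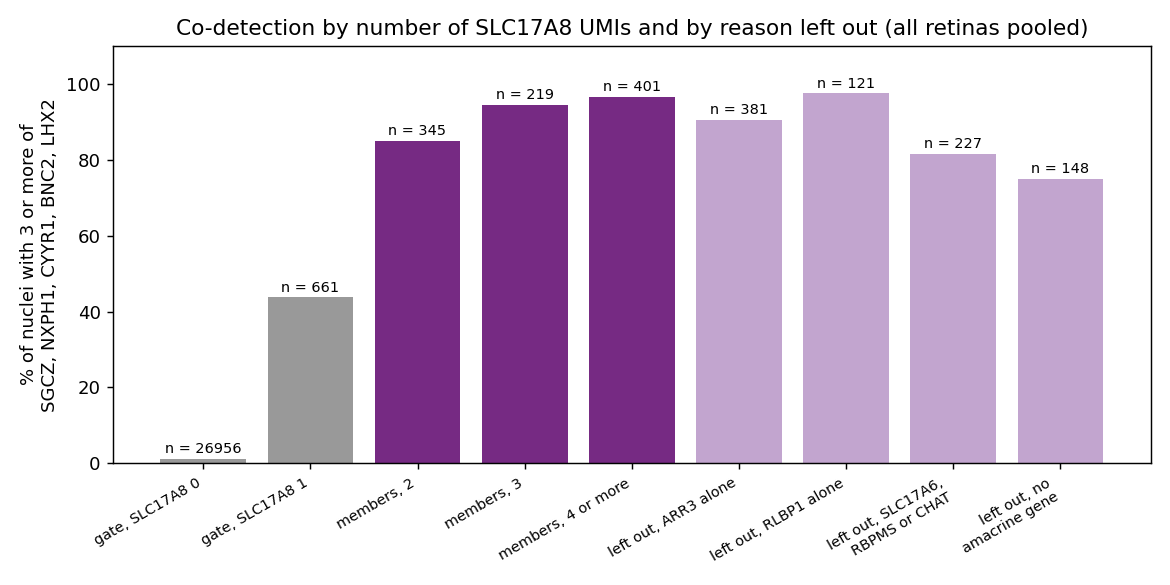
Percentage of nuclei with at least 3 of the 5 genes SGCZ, NXPH1, CYYR1, BNC2 and LHX2, over all retinas together, by SLC17A8 count in the AC gate and by the reason for which nuclei were left out, with the number of nuclei above each bar. The bars rise from 1.17% at 0 SLC17A8 UMIs to 96.5% at 4 or more, and nuclei left out for ARR3 alone stand at 90.6%.

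Members with and without SLC6A9 UMIs had like levels of the signature genes. The 330 members without an SLC6A9 UMI and the 635 with one had mean levels of 5675 and 5664 CPM of NXPH1, 12140 and 12154 CPM of SGCZ, 2227 and 2308 CPM of CA10 and 139 and 139 CPM of SDK2. These pairs differed by less than the spread over retinas, and the split by SLC6A9 was not tested further. By the AC gene that admitted them, members with PAX6 alone had 4428 CPM of NXPH1 and those with TFAP2A or TFAP2B 5779 CPM.

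CA10, which the study used as a marker of BCs, was high in the members. It was at 1718, 2162 and 3108 CPM in members, at 230, 552 and 1514 CPM in glycinergic ACs and at 255, 545 and 1104 CPM in all other ACs, with no overlap, and the mean of BC-gate nuclei was 3997 CPM. The log2 difference was 2.05 ± 0.13 against glycinergic and 1.79 ± 0.08 against all other ACs (edgeR, adjusted p = 2.17e-12 and 1.64e-18). CA10 was detected in 95.9% of members and 36.6% of other ACs. The other 9 BC markers together were lower, with a summed level of 89.5 to 377 CPM (median 200 CPM) in members, 221 to 565 CPM (median 349 CPM) in glycinergic and 175 to 465 CPM (median 352 CPM) in all other ACs. Of them NETO1 was higher than in glycinergic ACs (0.50 ± 0.18, edgeR adjusted p = 0.0295) and not past the threshold against all other ACs (0.02 ± 0.20), while PRKCA was lower than in all other ACs (-1.42 ± 0.16). CABP5 was at 0 in members and in both sets of other ACs. Among nuclei without any UMI of the BC genes TRPM1 and NETO1, a choice made after the data had been seen, the CA10 difference was 2.76 against glycinergic and 2.78 against all other ACs.

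Markers of the other classes differed from the remaining ACs by class. The 10 cone markers summed to 47.5 to 192 CPM in members and 41.6 to 223 CPM in other ACs. ARR3 (by the rule), CNGB3 and GNGT2 were at 0 in both. The 10 rod markers summed to 0 to 72.7 CPM in members and 29.4 to 153 CPM in other ACs, with CNGA1 at 0 in both and CNGB1 at 0 in members. The 8 Müller markers summed to 67.5 to 872 CPM in members and 267 to 913 CPM in other ACs. The 9 ganglion cell markers summed to 20.1 to 319 CPM in members and 47.2 to 279 CPM in other ACs, with 4 of them, SLC17A6 and RBPMS of the rule among these, at 0 in both. Horizontal cell markers summed to 206 to 507 CPM in members and 214 to 447 CPM in other ACs, and astrocyte markers to 60.3 to 937 and 70.9 to 710 CPM. The ranges overlapped in each of these classes. Microglial markers summed to 15.9 to 102 CPM in members and 10.8 to 47.3 CPM in other ACs. Of the markers of these classes that are not in the rule, 8 passed the filter in each set. CLU and TF of Müller glia and CALB1 of horizontal cells were lower, with CLU at -0.65 ± 0.13 (edgeR, adjusted p = 0.000198), and PDE6H, SLC1A3, SNCG and SPARCL1 did not pass. The microglial P2RY12 was higher by 1.03 ± 0.17 (edgeR, adjusted p = 7.83e-06), in 13 of 15 retinas. The part of these markers in the results was not tested.

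Among 51 AC transcription factors, the members had a mixed profile. TCF4, a basic helix-loop-helix factor by which the study classed glycinergic ACs, was at 1094, 1367 and 1805 CPM in members, 1250, 1450 and 1973 CPM in glycinergic and 221, 546 and 936 CPM in all other ACs. Members and glycinergic ACs overlapped (log2 difference -0.06 ± 0.06, not passing), while members and all other ACs did not (1.26 ± 0.08, edgeR adjusted p = 2.72e-14). EBF1 was lower in both comparisons, at 0, 140 and 300 CPM in members, 312, 623 and 921 CPM in glycinergic and 145, 237 and 346 CPM in all other ACs (-2.15 ± 0.19, without a test, and -0.91 ± 0.20), and only the glycinergic sums lay clear of the members.

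NFIB, nuclear factor I/B, which the study used for another glycinergic subtype, was at 31.2, 133 and 341 CPM in members, and it was lower than in glycinergic ACs (-1.41 ± 0.22). Against all other ACs NFIB was lower by -0.75 ± 0.22 (edgeR, adjusted p = 0.00887), but this reversed in the libraries of the earlier Cell Ranger version, with polyA RNA in the labels, where it was 0.38 and past the threshold. Mean levels of NFIB were 186 CPM in members and 145 CPM in other ACs in the earlier version, and 113 and 316 CPM in the later one.

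Several factors differed the same way against glycinergic and all other ACs. Of 29 factors tested in both fits, against 11.5% and 12.5% of all features, 6 were higher in both (MEIS1, BARHL2, LMO4, RORB, TSHZ3 and BCL11A) and 14 lower, among them NFIA, MEIS2, SOX5, PBX3, ZEB2, TSHZ2 and PROX1. Among the 16 that passed the filter in each set, 5 were higher and 5 lower, against 14.7% and 9.90% of such features. Of the lower factors EBF3, NFIB and NFIX reversed against all other ACs in the earlier Cell Ranger version. TSHZ3, a teashirt zinc finger factor, was at 89.9, 186 and 309 CPM in members and 37.2, 54.9 and 91.5 CPM in glycinergic ACs (1.73 ± 0.12). BARHL2, a homeodomain factor of ACs, was at 0, 43.8 and 86.5 CPM against 5.08, 13 and 25.7 CPM (1.91 ± 0.18, without a test). SOX5 was at 62.1, 125 and 277 CPM in members and 373, 632 and 769 CPM in all other ACs, without overlap (-2.29 ± 0.14). NEUROD2, a neuronal basic helix-loop-helix factor, passed the filter only against all other ACs, and there through the members alone, at 0, 36.5 and 114 CPM against 0.967, 5.15 and 12.4 CPM. Over the list, 7 of 29 factors tested were higher and 15 lower against glycinergic ACs, where 15.2% and 15.9% of all features were, with a median log2 difference of -0.67 against -0.01 over all features. These values include factors that passed the filter through the members alone or the other ACs alone. The 16 factors past it in each set had as many higher as lower, 5 each.

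Glutamate receptors, through which ACs receive BC input, differed in both directions. Of 15 receptor genes tested in both fits, 5 were higher in both (GRIK4, GRIN2A, GRIN2B, GRID1 and GRM8) and 4 lower (GRIA1, GRIA3, GRIA4 and GRM7), against 11.5% and 12.5% of all features. Among the 13 that passed the filter in each set, 5 were higher and 3 lower. GRIN2A, the NMDA receptor subunit GluN2A, was at 1736, 2510 and 3093 CPM in members, 302, 481 and 686 CPM in glycinergic and 286, 610 and 767 CPM in all other ACs. The members did not overlap with either group, and GRIN2A was higher by 2.29 ± 0.09 and 1.98 ± 0.10 (edgeR, adjusted p = 2.35e-16 and 2.18e-17). The metabotropic receptor GRM8 was at 3180, 3851 and 5218 CPM in members and 1180, 1659 and 2157 CPM in glycinergic ACs (1.25 ± 0.07). GRM7, of the same group of receptors, was at 124, 481 and 822 CPM against 331, 851 and 1334 CPM and was lower in 15 of 15 retinas (-0.92 ± 0.11), although the groups overlapped. The AMPA receptor subunit GRIA4 was lower by -0.82 ± 0.08.

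Receptors for GABA and glycine, the inhibitory input, differed in both directions over all genes tested. Among those that passed the filter in each set, 0 were lower in both fits. Of 15 genes tested in both fits, 4 were higher in both and 4 lower, against 11.5% and 12.5% of all features. Of the 8 that passed the filter in each set, 4 were higher and 0 lower. The higher ones included GABRB2, a subunit of GABA-A receptors, the glycine receptor subunit GLRA1 and the scaffold GPHN (gephyrin), and the lower ones GABRA3 and GABRG1. GABRB2 was at 1144, 1561 and 1998 CPM in members, 299, 424 and 575 CPM in glycinergic and 247, 324 and 387 CPM in all other ACs, with no overlap (1.91 ± 0.09 and 2.19 ± 0.07). GLRA1 was at 244, 344 and 569 CPM in members and 138, 192 and 234 CPM in all other ACs, also without overlap (0.90 ± 0.08). Its difference from glycinergic ACs was smaller, at 0.41 ± 0.10, and those groups overlapped. GABRG1 was at 0, 22.8 and 110 CPM in members and 39.8, 159 and 333 CPM in all other ACs, with overlap, and its difference (-1.98 ± 0.15) is no test. Against glycinergic ACs 6 of 15 genes were higher and 4 lower, against 15.2% and 15.9% of all features, with a median log2 difference of 0.14 against -0.01 over all features. These values include GABRA3, which passed the filter through the other ACs alone there.

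**Figure D4:**
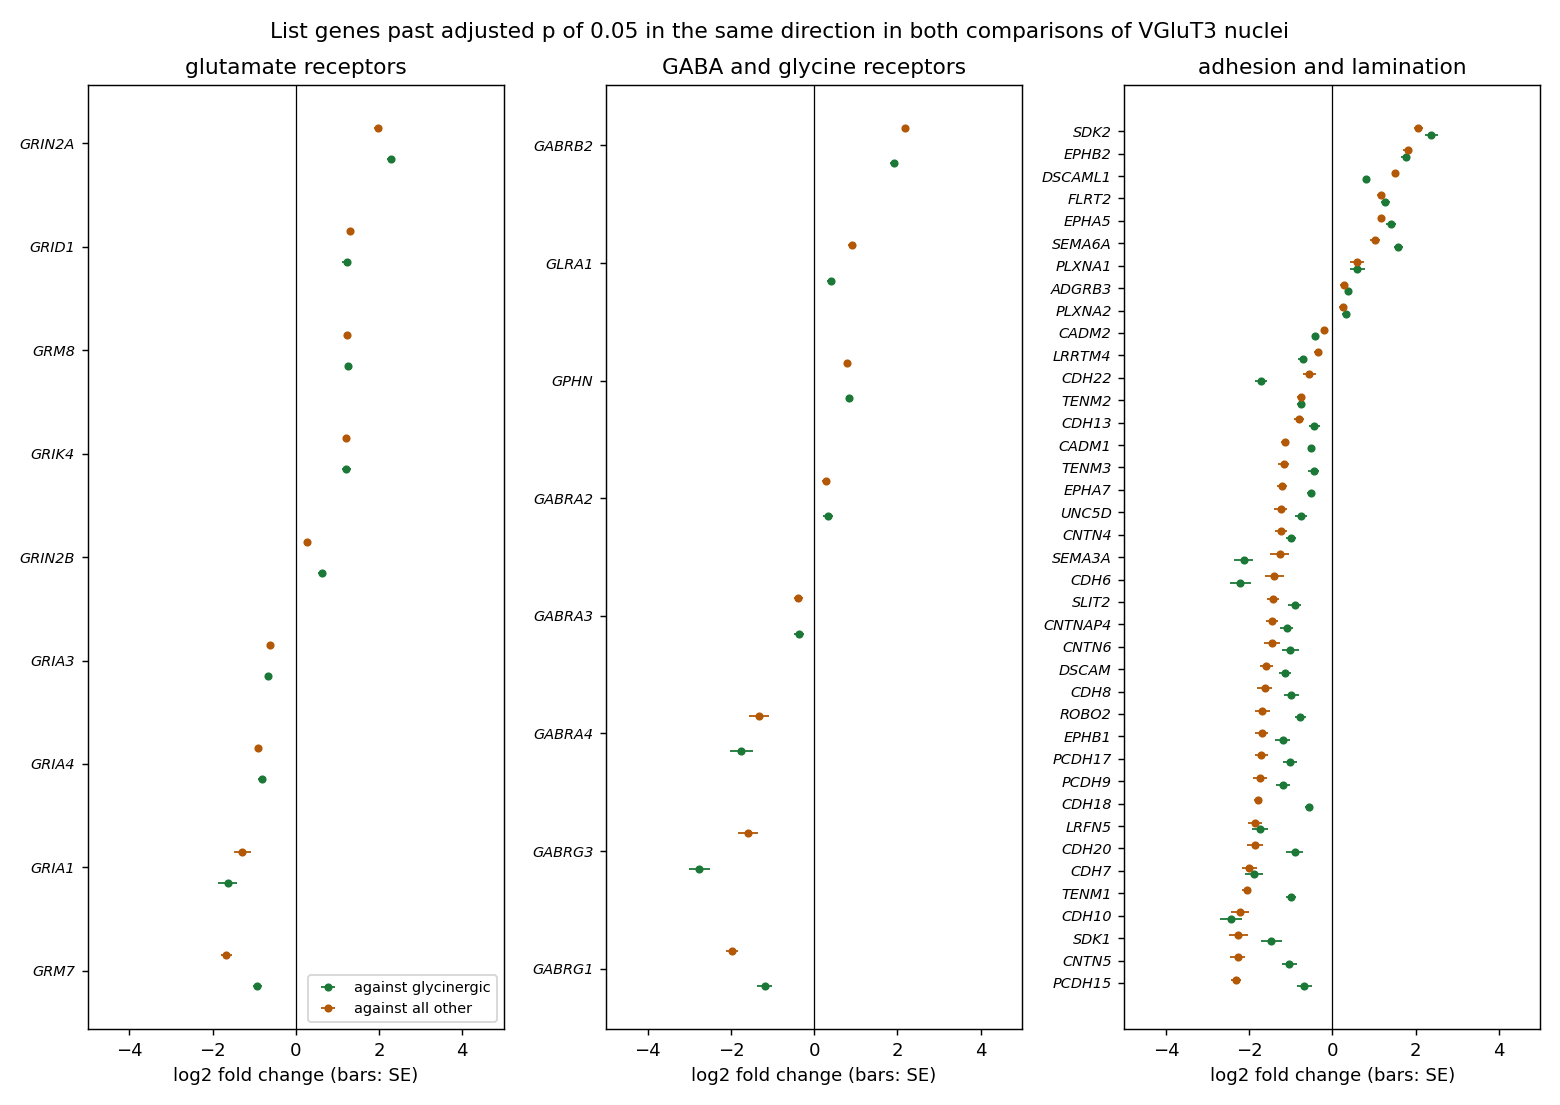
Log2 fold change (points, with bars for the SE) of glutamate receptor, GABA and glycine receptor and adhesion genes in VGluT3 nuclei against glycinergic and all other ACs, for the genes that passed in the same direction in both. SDK2, GRIN2A and GABRB2 lie to the right of 0, and the 30 lower adhesion genes lie to the left. Some genes passed the filter through the members alone or the other ACs alone in a comparison, where their points are no test. SDK2, EPHB2, SDK1, GRIA1, GABRA3 and GABRG1 are among them.

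Adhesion genes, which sort cells and their processes into the layers of the inner retina, were lower more often than higher. Of 56 tested in both fits, 30 were lower and 9 higher in both, against 12.5% and 11.5% of all features, so that the higher share was near that of all features. Of the 37 that passed the filter in each set, 18 were lower and 6 higher, against 9.90% and 14.7% of such features. The median log2 difference from glycinergic ACs was -0.48, and -0.01 over all features. This median includes genes that passed the filter through the members alone or the other ACs alone. The 9 higher genes were SDK2, DSCAML1, SEMA6A, PLXNA1, PLXNA2, EPHA5, EPHB2, FLRT2 and ADGRB3. The 2 members of the Sidekick pair moved apart: SDK1 was at 7, 98.7 and 290 CPM in members and 329, 541 and 692 CPM in all other ACs (-2.26 ± 0.22). The DSCAM pair, which are homophilic receptors of the same superfamily, did likewise. DSCAML1 was at 661, 1004 and 1657 CPM in members and 162, 384 and 648 CPM in all other ACs (1.50 ± 0.07), whereas DSCAM was at 162, 540 and 1431 CPM in members and 895, 1689 and 1916 CPM in all other ACs (-1.59 ± 0.16). EPHB2, a receptor of ephrins, was at 106, 192 and 312 CPM against 15.2, 59.1 and 97.5 CPM in glycinergic ACs (1.76 ± 0.11, without a test). Contactin CNTN5 and protocadherin PCDH15 were lower in both fits, and PCDH15 was at 147, 288 and 469 CPM in members and 684, 1387 and 2195 CPM in all other ACs (-2.32 ± 0.12).

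Genes of vesicle release differed in both directions. Of 28 tested in both fits, 7 were higher in both (SYT9, STX3, CPLX3, SV2B, ERC2, PPFIA2 and SYNPR, of which SYNPR reversed against all other ACs in the earlier Cell Ranger version) and 6 lower (SYT4, SYT7, UNC13C, RIMS4, SV2A and PCLO), against 11.5% and 12.5% of all features. Of the 19 that passed the filter in each set, 6 were higher and 3 lower. SV2B, a vesicle glycoprotein, was at 164, 248 and 416 CPM in members, 40.8, 82.4 and 180 CPM in glycinergic and 34.2, 92.3 and 102 CPM in all other ACs (1.62 ± 0.13 and 1.51 ± 0.11). Its paralog SV2A was lower by -0.33. SYT9, a calcium sensor of the synaptotagmin family, was at 226, 303 and 444 CPM in members and 41.1, 90.9 and 122 CPM in glycinergic ACs, without overlap (1.83 ± 0.11). CPLX3, a complexin known from ribbon synapses and some ACs, was at 152, 248 and 413 CPM against 91.2, 155 and 238 CPM (0.77 ± 0.12, higher in 13 of 15 retinas).

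Among voltage-gated channels, 18 of 36 tested in both fits were lower and 9 higher in both, against 12.5% and 11.5% of all features. Of the 21 that passed the filter in each set, 9 were lower and 9 higher. KCNMA1 and KCNH8, both among the lower ones, reversed against all other ACs in the earlier Cell Ranger version. CACNA2D1 and CACNA2D3, auxiliary subunits of calcium channels, were among the higher ones. CACNA2D1 was at 954, 1225 and 1616 CPM in members and 159, 246 and 691 CPM in glycinergic ACs (2.22 ± 0.12), and CACNA2D3 at 1315, 1770 and 2447 CPM in members, 924, 1238 and 1811 CPM in glycinergic and 172, 385 and 643 CPM in all other ACs (0.52 ± 0.07 and 2.13 ± 0.09). The lower genes included potassium channels such as KCNQ3 and KCNC2. KCNQ3, a subunit of the M-current channel, was at 7, 50.6 and 255 CPM in members and 337, 522 and 849 CPM in glycinergic ACs, without overlap (-2.73 ± 0.26, without a test). KCNC2, of the fast-spiking Kv3 family, was at 35.0, 193 and 500 CPM against 397, 635 and 931 CPM (-1.62 ± 0.18).

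Neuromodulator receptors were mostly too low to test in both fits. Of 45 listed, 22 were tested against all other ACs, where 5 were higher and 12 lower, against 10.2% and 16.9% of all features. These counts include genes that passed the filter through the members alone or the other ACs alone. Only 7 were tested in both fits, where 2 were higher in both (CHRNA4 and VIPR2) and 3 lower (CHRNA6, OPRM1 and TACR3), against 11.5% and 12.5% of all features. Of these 7 only 1 passed the filter in each set, and it was neither higher nor lower in both. TACR1, the receptor of substance P, was at 0, 0 and 23.9 CPM in members and 32.5, 49.1 and 69.1 CPM in other ACs, without overlap. CRHR1, a receptor of corticotropin-releasing hormone, was at 0, 29.0 and 56.1 CPM against 3.39, 7.16 and 11.9 CPM, with overlap. Neither difference is a test. The VIP receptor VIPR2 was at 21.9, 63.6 and 219 CPM against 1.96, 12.3 and 23.7 CPM in glycinergic ACs. It was higher than in all other ACs by 0.84 ± 0.14.

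Of 27 markers of other AC subtypes, 9 were tested in both fits, where 5 were lower and 1 higher in both, against 12.5% and 11.5% of all features. FAT4 was the higher one (0.85 ± 0.13 against glycinergic ACs). Of the 4 that passed the filter in each set, 1 was higher and 2 lower. The calcium-binding protein CALB2 was at 0, 20.7 and 43.8 CPM in members and 19.8, 77.0 and 138 CPM in glycinergic ACs, and it passed the filter in neither set alone. In a list of genes chosen for the comparison of stages, ERBB4, a receptor of neuregulins, was at 2801, 4034 and 5266 CPM in members and 198, 518 and 1997 CPM in glycinergic ACs (2.86 ± 0.17), and the phosphodiesterase PDE4B was higher by 1.51 ± 0.08. Of the other 9 of these genes tested in both fits, 6 were lower in both, against 12.5% of all features, and 5 of these passed the filter in each set. Of 25 respiratory chain genes tested against glycinergic ACs, 0 were higher and 2 lower (NDUFA9 and COX5B), where 15.2% and 15.9% of all features were. Of the 9 that passed the filter in each set in both comparisons, 0 were higher and 0 lower in both. NDUFA9 and COX5B were thus not among these. Of 6 heat shock genes and 2 neuronal activity genes tested against glycinergic ACs 0 passed, which are too few to set against the shares of all features.

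Across stages, few features changed within the members. Of 4873 features tested with stage and Cell Ranger version in the model (edgeR), 5 were higher (0.103%) and 0 lower in mature than in infant retinas. In senile against infant retinas 12 were higher (0.246%) and 2 lower (0.041%). Between senile and mature retinas 0 passed by edgeR, where 310 had an unadjusted p under 0.05. By DESeq2 1 feature passed the adjusted threshold there. The stages did not overlap for 54 features (1.11%) between mature and infant, 77 (1.58%) between senile and infant and 42 (0.862%) between senile and mature retinas. Without any stage difference, 5 against 5 retinas would separate fully with a probability of 0.00794 by exact permutation. The share between senile and mature retinas was near this. None of the lists had a gene past the threshold between any pair of stages, which includes 27 transcription factors, 53 adhesion genes, 14 glutamate receptor genes and 11 genes of the list chosen for stages. In simulated data drawn from these retinas the stage test found 45% of 2-fold and 90% of 4-fold changes among 4520 features, so that changes of 2-fold were often below what it could detect.

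SPRED2, an inhibitor of Ras signalling, was the only named gene that passed and did not overlap between senile and infant retinas. The infant retinas had 189, 183, 157, 161 and 192 CPM, the mature retinas 177, 104, 202, 117 and 168 CPM, and the senile retinas 83.5, 31.2, 118, 116 and 80.5 CPM. The 5 senile sums lay below the 5 infant sums, and the mature sums overlapped with both. SPRED2 reached the filter's level of 36.5 CPM in 5 of 5 infant, 5 of 5 mature and 4 of 5 senile retinas. The 31.2 CPM of Senile 2 come from a sum of 32007 UMIs over all genes, and thus from very few UMIs. SPRED2 was at -1.13 ± 0.24 on the log2 scale in senile against infant retinas (edgeR, adjusted p = 0.0445), and it passed in 7 of 24 alternative settings, with values from -1.34 to -0.91.

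LRP1B, a large endocytic receptor of the LDL receptor family, also passed and is named here after its values were seen. The infant retinas had 49.0, 352, 245, 250 and 157 CPM, the mature retinas 567, 393, 291, 307 and 273 CPM, and the senile retinas 680, 344, 658, 956 and 672 CPM. Senile and infant retinas overlapped by 1 retina each, Senile 2 and Infancy 2. LRP1B was higher by 1.59 ± 0.34 on the log2 scale (edgeR, adjusted p = 0.0461) and passed in 8 of 24 alternative settings, with values from 1.19 to 1.85.

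Cone markers had a median summed level of 64.7 CPM in infant, 94.1 CPM in mature and 174 CPM in senile retinas in the members. The ranges were 47.5 to 126, 69.9 to 104 and 51.7 to 192 CPM. In other ACs the medians were 66.7, 108 and 167 CPM. The stages overlapped in both sets, and the sums were not tested between stages. The 1 cone marker tested, PDE6H, was at 1.72 ± 0.51 on the log2 scale in senile against infant retinas and did not pass (edgeR, adjusted p = 0.328). The part of cone RNA in the stage differences was not tested.

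The other features that passed were numbered copies, antisense and LINC features, whose reads can be shared with near-identical copies and whose values are uncertain. MIA3li3, a numbered copy of MIA3 that is named here after its values were seen, was at 0, 18.0, 11, 15.8 and 3.65 CPM in infant, 111, 135, 134, 111 and 117 CPM in mature and 155, 187, 84.4, 251 and 199 CPM in senile retinas, so that no infant retina reached the level of a later one. It reached the filter's level of 36.5 CPM in 5 of 5 mature, 5 of 5 senile and 0 of 5 infant retinas, so that its log2 differences from infant retinas, 3.52 ± 0.37 in mature and 4.03 ± 0.39 in senile retinas, are a description and not a test. With the later Cell Ranger version alone the mature minus infant difference was 3.75 and did not pass (edgeR, adjusted p = 0.0534). LINC-FRMD8-1, a LINC feature that took 10.2 to 19.6% of the UMIs of members, made up 17.5 ± 1.3% (SD, n = 5) in infant, 15.9 ± 2.24% in mature and 12.1 ± 2.07% in senile retinas. It was at -0.64 ± 0.12 on the log2 scale in senile against infant retinas (edgeR, adjusted p = 0.0119).

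**Figure D5:**
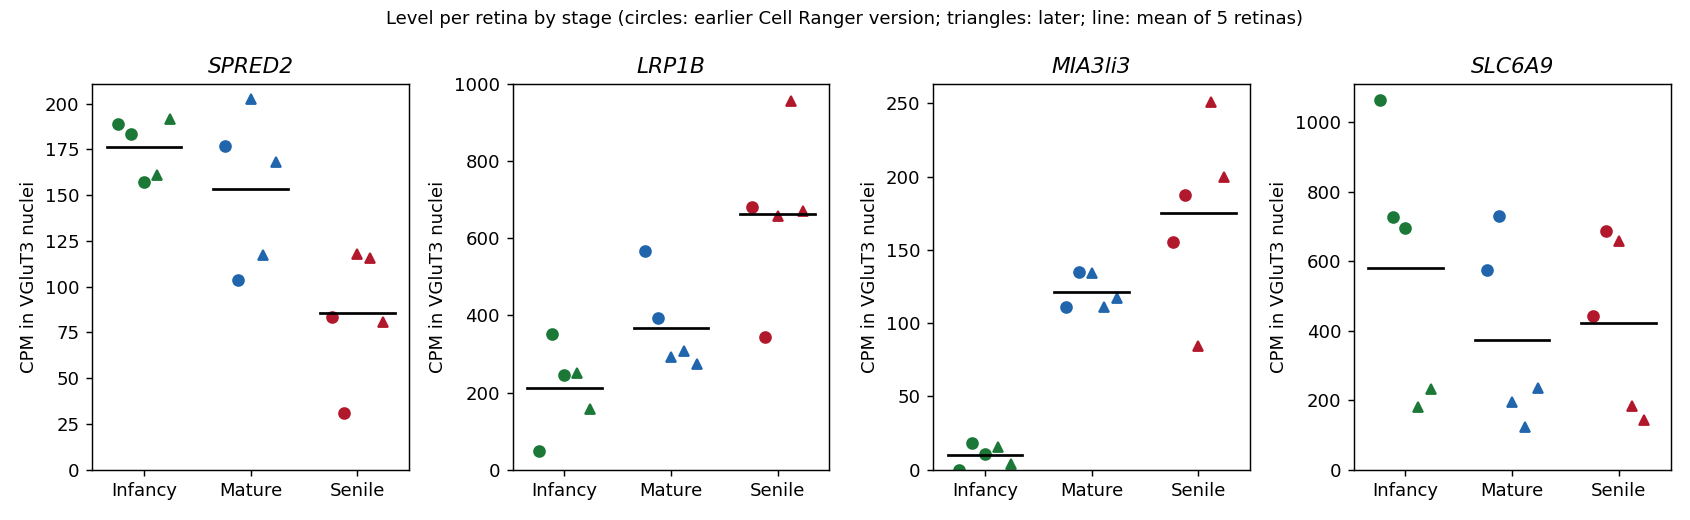
Levels per retina, in CPM, of SPRED2, LRP1B, MIA3li3 and SLC6A9 in VGluT3 nuclei by stage, with circles for the earlier and triangles for the later Cell Ranger version and lines for the means of 5 retinas. The senile sums of SPRED2 lie below the infant ones, those of MIA3li3 lie above them, and the circles of SLC6A9 lie mostly above its triangles.

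Whether a stage difference was particular to the members was tested as an interaction with glycinergic ACs of the same retinas. Of 6822 features 0 passed by edgeR (0%), where 325 had an unadjusted p under 0.05. By DESeq2 0 passed the adjusted threshold as well. For SPRED2 the senile against infant difference was lower in members than in glycinergic ACs by -1.03 ± 0.23 on the log2 scale, and for LRP1B it was higher by 1.43 ± 0.30, and neither passed (edgeR, adjusted p = 0.298 and 0.253). For MIA3li3 the interaction was 0.99 ± 0.40 and for LINC-FRMD8-1 -0.15 ± 0.12 (edgeR, adjusted p = 1 for both). No stage effect can therefore be called particular to VGluT3 ACs.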

How the data were processed

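Single-nucleus libraries of 15 TS retinas were analysed from 1 count matrix per retina. The authors used Cell Ranger with the TS_3.0 assembly and deposited raw UMI counts per feature and barcode, for 83605 features, without normalization. Per the file headers the version was 6.1.2 in 7 libraries (Infancy 1 to 3, Mature 1 and 2, Senile 1 and 2) and 7.0.1 in 8, while the submitters' processing notes give 5.0.1 and 7.0.1. The labels give polyA RNA for the first set and total RNA for the second, and the kit version differs between the labels and the study's methods. Whether introns were counted is not given in the sources used here. Library totals were 13429873 to 58734300 UMIs. Sex is not in the labels and was not modelled.

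The members, gene lists and tests were chosen with earlier results of these data known. UMIs were summed per retina and nucleus group and tested with edgeR 4.0.16 (TMM, filterByExpr, quasi-likelihood, R 4.3.3), with Benjamini-Hochberg adjustment over all features tested and a threshold of 0.05. Retina was a block between groups of nuclei, and stage and version were in the model between stages. Shares were compared by 2-sided exact permutation, for which 5 against 5 retinas cannot go below p = 0.00794. Named genes are those of the lists, and the 20 higher and 10 lower named single genes with the largest log2 fold change in the weaker of the comparisons with glycinergic and all other ACs, of 155 and 118 that passed both, had the same sign in every retina and at least 20 CPM. Between stages, they are those that passed without overlap at 20 CPM or more. Antisense, LINC, unnamed and numbered features were counted and not named by the rule.

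The planned GABAergic reference used GAD1 and GAD2 and held 6 nuclei, so that comparison was not made, and all other ACs took its place in the rule for named genes after the data had been seen. Some genes of the lists are not reported here. The fit without nuclei with TRPM1 or NETO1 UMIs was also added then. Doublets were called within each retina by simulated neighbours, at 8 per 1000 for every 1000 nuclei, and were kept except in 1 alternative. In simulated data with known changes, the fits found 94% of 2-fold and 86% of 4-fold changes against glycinergic ACs (4737 features). They found 91% and 93% against all other ACs (10957), and 23% and 77% for the interaction (6179), with 7 or 8 false calls. All simulated sums were drawn from a common profile, without differences between retinas, versions or nucleus groups other than the known changes. The alternatives were DESeq2 1.42.0, no low-count filter, other thresholds of the rule, depth limits, each version alone, the replicate block and leaving out each retina. The number of per-sample columns not used was 0. Intervals cover counting error only. Genome coordinates and sequences were not used here. Other tools were scikit-learn 1.9.0, pandas 2.3.3, scipy 1.17.1 and numpy 2.4.6 under Python 3.11.15.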

Additional observations from a re-analysis of the deposited data

Results flagged for a closer look

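In 24 groups of 5 retinas, 1 retina stood apart from its group by Dixon's test in 3, where chance gives about 1 in 20. Infancy 5 had a share of VGluT3 nuclei in the AC gate of 5.42%, above the 3.27 to 3.75% of the other infant retinas. Mature 5 had a share of all nuclei of 1.44%, above the other mature retinas, and it also had the deepest members, at a median of 6345 UMIs. Infancy 2 had 39.5 CPM of the numbered copy MIA3li2 in members, apart from the other infant retinas.

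Nuclei that the rule had left out carried a gene of the signature. NXPH1 had a mean of 4026 CPM in the nuclei left out for ARR3 alone and of 6165 CPM in those with neither an AC gene nor an exclusion gene, against 5610 CPM in members and 127 CPM in ACs without SLC17A8 UMIs. These nuclei entered no comparison.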

How the results depend on the processing

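All 30 genes named by rank kept their direction and call in every alternative that gave a value, over 745 values against glycinergic ACs and 750 against all other ACs. Against glycinergic ACs, 16 of the higher genes passed the filter through the members alone and 6 of the lower ones through the other ACs alone. Against all other ACs these were 3 and 5. For such genes the kept calls are a description and not a test. Of all 179 and 261 genes of the lists and ranks that passed in these comparisons, 31 and 53 kept their direction but lost their call with the earlier version alone. A further 7 reversed there against all other ACs. With the later version alone 10 and 19 lost their call, and without retina as a block 25 and 35 did. Counts of features past the threshold moved by over 1.5 times in these settings. Without a low-count filter they were 3274 (glycinergic) and 5902 (all other ACs) against 1539 and 3038, with the median of all features at -0.28 and -0.49, and 90, 99, 53 and 11 for mature against infant, senile against infant, senile against mature and the interaction, against 5, 14, 0 and 0. With the earlier version alone they were 912 and 1842 for the nucleus groups, 5 for senile against infant and 2 for senile against mature. With the later version alone, mature against infant gave 2 and senile against infant 4. DESeq2 gave 15 for mature against infant and 1 for senile against mature. At 3 or more SLC17A8 UMIs the first 2 stage comparisons gave 1 and 6, with 2 or more UMIs of the AC genes mature against infant gave 8 and senile against mature 1, and without called doublets senile against infant gave 8. Leaving out each retina gave 1420 to 1589 and 2743 to 3103 for the nucleus groups, 4 to 10 for mature against infant (10 without Mature 3, 8 without Mature 4, Senile 2 or Senile 4), 10 to 17 for senile against infant, 0 to 1 for senile against mature (1 without Senile 1) and 0 to 1 for the interaction (1 without Infancy 2). The causes were not tested. The planned comparison with GABAergic ACs was not run, as its gate held 6 nuclei. No share difference passed in any setting. Without each retina in turn they were -0.877 to 0.0393, -1.35 to -0.618 and -1.01 to -0.134 points, and over all nuclei the senile against infant share differed by -0.395 points (exact permutation p = 0.0794, adjusted 0.238).

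SPRED2 lost its call in 17 and LRP1B in 16 of 24 settings (edgeR), among them each Cell Ranger version alone. In the earlier version alone, directions reversed against all other ACs for EBF3 (0.0958), KCNMA1 (0.0221), SSTR2 (-0.17), NFIB (0.38), SYNPR (-0.0054), NFIX (0.45) and KCNH8 (0.14). The replicate numbers did not pair the retinas, since the correlation of residuals between same-numbered retinas of 2 stages was -0.328 to 0.184, over 0.1 in 3 of 15 pairs. With the replicate number as a block, 2 features passed between mature and infant, 13 between senile and infant and 1 between senile and mature retinas, and the share differences had p = 0.4375, 0.125 and 0.375 by exact sign flips. Without retina as a block, 1159 and 2310 features passed between nucleus groups. Depth limits the stage tests, as members summed to 32007 UMIs in Senile 2 and 547715 in Infancy 5.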
